A study of Mus musculus with 11 samples.

Results

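Amino acid transporter genes were followed across 11 mouse tumors that model small cell lung cancer, which is a neuroendocrine carcinoma of the lung. The genes were taken by symbol, as all members of the solute carrier families Slc1, Slc3, Slc6, Slc7, Slc36, Slc38 and Slc43, which gave 62 of the 23284 genes listed. Of these, 61 are named as carriers or carrier subunits, and Slc7a6os, a gene named for lying opposite to Slc7a6, is no transporter. All tumors carried Rb and p53 alleles, a MYCN transgene under a doxycycline-responsive element (TRE-MYCN) and a stop-flanked transactivator (LSL-RTTA) that needs Cre recombinase. In 7 tumors doxycycline was being given (ON DOX), and 4 tumors were taken 7 days after it was withdrawn (OFF DOX). The comparison asks which transporters differ in level between tumors with MYCN induced and tumors in which its induction had stopped. Doxycycline and MYCN changed together, so an effect of the drug and an effect of MYCN cannot be told apart. The labels do not give the age or sex of the mice, the source of Cre, or whether each tumor is from its own mouse, so the p-values reflect only how much these tumors vary.

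Cells take up amino acids through carriers that either accumulate them with the help of ion gradients or exchange one amino acid for another. Sodium-coupled Slc38 carriers and Slc1 exchangers load the cell with small neutral amino acids such as glutamine, and the Slc7 light chains, each bound to a heavy chain of the Slc3 family, trade those for leucine and other essential amino acids. Lysosomal carriers move amino acids across the lysosomal membrane and take part in signaling to the growth kinase complex mTORC1, and MYC family factors are known for raising several glutamine and leucine transporters in tumors.

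Reads counted in genes were 10324089 to 13123838 per ON DOX tumor and 8951733 to 12190957 per OFF DOX tumor. Mycn itself was at 102 ± 48.1 CPM (reads scaled to library size; SD, n = 7) on doxycycline and 12.2 ± 4.51 (n = 4) off it, a log2 change of 3.06 (SE 0.47, adjusted p = 0.00139), and no tumor of either group reached into the range of the other. Markers of normal lung differed strongly between tumors. The summed level of 15 lung epithelial genes was 65.6 to 174 CPM in ON DOX tumors 1, 2, 4, 6 and 7 and in OFF DOX tumor 2. It was 1090.4 and 3648 CPM in ON DOX tumors 3 and 5, and 34261, 3225 and 5744 CPM in OFF DOX tumors 1, 3 and 4. Of those 15 genes 5 were lower in ON DOX tumors, and Sftpb, Sftpd, Lamp3, Scgb3a1 and Cyp2f2 were at 0 in at least 1 tumor. The sum of 16 immune markers was 148 to 697 CPM on doxycycline and 248 to 5535 CPM off it. Of the 13 tested, 9 were lower in ON DOX tumors, Cd3e, S100a8, S100a9 and Nkg7 were among those at 0 in at least 1 tumor, and the part of immune cells in the transporter values was not tested. The sum of 11 neuroendocrine markers was 2941 to 4384 CPM and 1705 to 8438 CPM, with 1 of them higher and 1 lower in ON DOX tumors and Neurod1 at 0 in at least 1 tumor. In such bulk samples, fewer cells of a type and less RNA per cell cannot be told apart.

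Between the groups, 4 transporters were higher on doxycycline and 3 were lower. The higher ones were Slc7a6 and Slc7a1, which carry cationic amino acids, and Slc38a2 and Slc38a3, which carry glutamine. The lower ones were Slc43a2, a carrier of large neutral amino acids, Slc36a1, a proton-coupled carrier of the lysosome, and Slc38a5, another glutamine carrier. Calls rest on edgeR's quasi-likelihood test over all 15237 genes tested, with p adjusted by Benjamini-Hochberg and a threshold of 0.05. Of the 62 members 48 passed the filter on low counts and were tested, 41 of them were not called, and 14 were not tested. Among the tested members 8.33% were called higher, against 16.0% of all genes tested, and 6.25% were called lower, against 13.4% of all genes. The median log2 fold change was 0.02 for the tested members and 0.00 for all genes, and 24 of 48 were above 0. Every ON DOX tumor lay above every OFF DOX tumor for 2 members, Slc7a6 and Slc38a2, where 11.4% of all genes tested did so. Every ON DOX tumor lay below for 1 member, Slc43a2, against 5.41% of all genes. All 4 shares or counts of the members were below those of all genes, a gap that was not tested, and the calls were of individual carriers. Scaling bears on the split. The main scaling (TMM) gave 4 higher and 3 lower, DESeq2's size factors (RLE) gave 4 and 5, upper quartile factors 4 and 7, and plain library totals 3 and 8, with shifts of the median of all genes of -0.08, -0.21 and -0.31 on the log2 scale. Calls over all 15237 genes shifted the same way. In the same order they were 2437 and 2038, 2142 and 2323, 1697 and 2894, and 1317 and 3347.

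**Figure D1:**
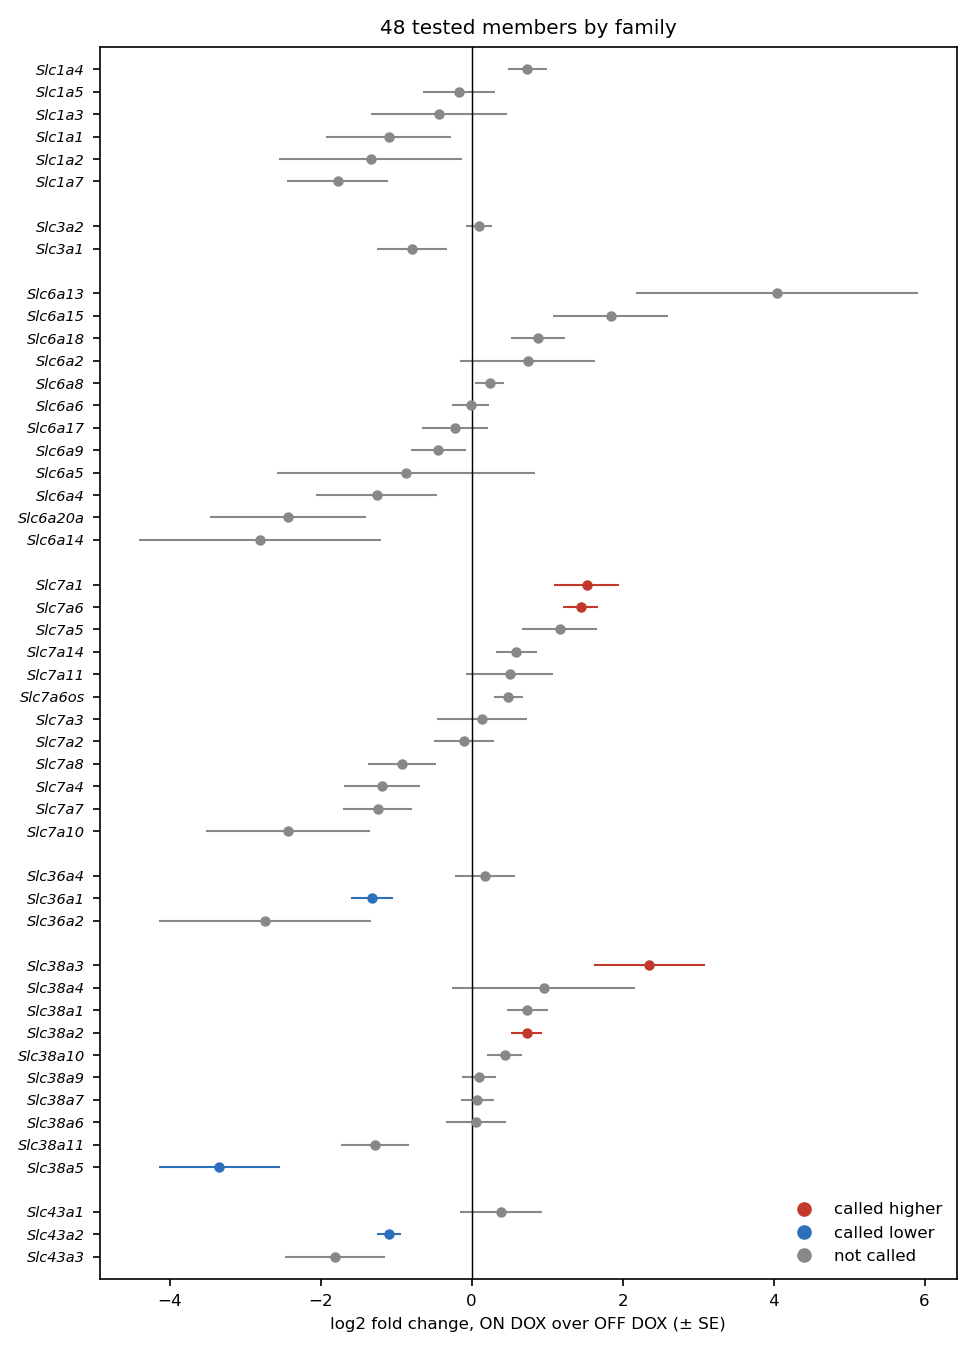
Log2 fold change of the 48 tested members, ON DOX over OFF DOX, grouped by family, with bars of 1 SE. Genes called higher are red, genes called lower are blue and genes not called are gray; the calls are 2 in Slc7, 3 in Slc38, 1 in Slc36 and 1 in Slc43, and none in Slc1, Slc3 and Slc6.

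The Slc38 family, sodium-coupled carriers of neutral amino acids, had 2 of 10 tested members higher and 1 lower, shares near the 16.0% and 13.4% of all genes, and a median log2 fold change of 0.27. Slc38a2 (SNAT2), a carrier of alanine, glutamine and other small neutral amino acids, had the highest level per transcript length of all members, at 80.4 CPM per kb averaged over the tumors. In ON DOX tumors it ranged from 484 to 725 CPM with a median of 544. In OFF DOX tumors 1 to 4 it was 237, 478, 389 and 284 CPM. The groups did not overlap, although OFF DOX tumor 2 came close to the lowest ON DOX tumor. That small gap rests on the TMM scaling and is absent with plain library totals. The TMM factors were 0.83 to 1.01 in ON DOX tumors and 1.09 to 1.22 in OFF DOX tumors. The means were 575 ± 78.7 (SD, n = 7) and 347 ± 108 CPM (SD, n = 4), a 1.66-fold difference with a log2 change of 0.73 (SE 0.20, adjusted p = 0.02). Without OFF DOX tumor 1 the adjusted p was 0.0554, and without OFF DOX tumor 4 it was 0.0629. With scaling to library totals the log2 change was 0.42 and the adjusted p 0.123.

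Slc38a3 and Slc38a5, which encode the carriers SNAT3 and SNAT5 of the so-called system N, transport glutamine, asparagine and histidine in exchange for protons, and they moved in opposite directions. Slc38a3 ranged from 4.84 to 45.8 CPM in ON DOX tumors with a median of 8.64. It was 0.880, 5.94, 2.36 and 2.53 CPM in the 4 OFF DOX tumors. OFF DOX tumor 2 lay inside the ON DOX range, and the ON DOX tumors spread widely. The means of 14.98 ± 14.4 (n = 7) and 2.93 ± 2.14 CPM (n = 4) gave a log2 change of 2.35 (SE 0.74, adjusted p = 0.0325), or 5.11-fold. The call was lost without ON DOX tumor 1 (0.0509) or 7 (0.0502) and without OFF DOX tumor 1 (0.0837), 3 (0.0801) or 4 (0.0813). The log2 change was 1.70 without ON DOX tumor 1 and 2.96 without OFF DOX tumor 2.

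Slc38a5 showed the reverse at a low level. It ranged from 0.176 to 2.57 CPM on doxycycline with a median of 1.33, and was 36.6, 11.8, 3.04 and 1.88 CPM in OFF DOX tumors 1 to 4. The first 3 OFF DOX tumors lay above every ON DOX tumor and the last lay among them. The log2 fold change was -3.34 (SE 0.80, adjusted p = 0.0109), that is, 10.1-fold higher off doxycycline, and without OFF DOX tumor 1 the log2 change was -2.08 and the adjusted p 0.0655.

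The other 7 tested Slc38 genes were not called in the main fit. Slc38a1 (SNAT1), a glutamine carrier of neurons and many tumors, ranged from 284 to 442 CPM in ON DOX tumors, with a median of 381. It was 99.8, 318, 209 and 278 CPM in the OFF DOX tumors, of which the second lay inside the ON DOX range. Its means of 377 ± 57.4 (n = 7) and 226 ± 95.6 CPM (n = 4) gave a log2 change of 0.74 (SE 0.27, adjusted p = 0.058), a size like that of Slc38a2. DESeq2, voom and the fit without OFF DOX tumor 2 called Slc38a1 higher. Slc38a9, which senses arginine at the lysosome for mTORC1, was at 42.4 ± 11.4 and 39.6 ± 6.60 CPM, a log2 change of 0.10 (SE 0.22, adjusted p = 0.77). Slc38a10 was at 197 ± 62.1 and 145 ± 25.7 CPM (0.44, SE 0.23, adjusted p = 0.167). Slc38a11 leaned the other way, at 10.03 ± 5.52 on and 24.4 ± 8.44 CPM off doxycycline (-1.28, SE 0.45, adjusted p = 0.0511). It was called lower in 10 of the 23 alternative settings, among them DESeq2, voom and all other scalings. Of the summed Slc38 level per kb, Slc38a2 made up 43.6% ± 4.72 on doxycycline and 36.2% ± 4.90 off it, and Slc38a1 made up 23.9% and 19.7%.

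**Figure D2:**
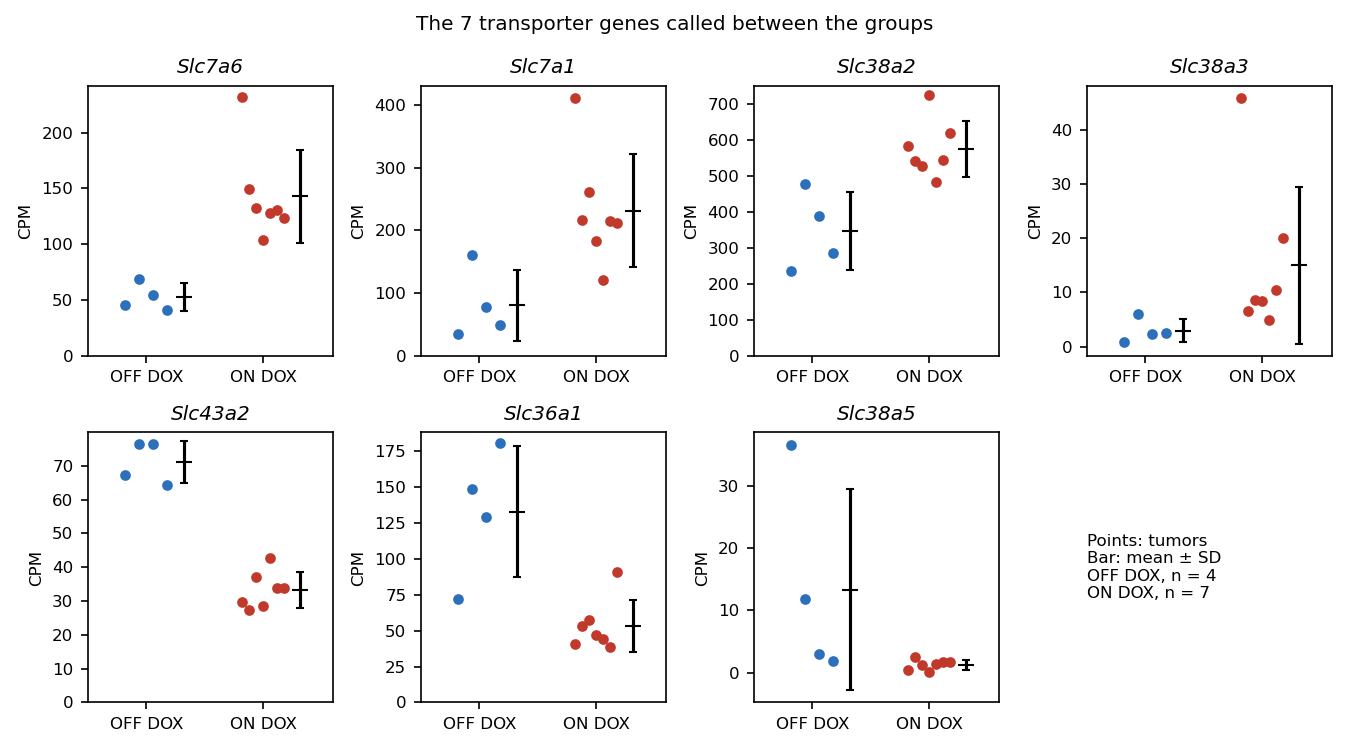
Level of the 7 called transporter genes in each tumor, in CPM on a linear axis that starts at or just under 0, with the OFF DOX tumors in blue and the ON DOX tumors in red. Points are tumors and the black mark with its bar is the mean ± SD; Slc7a6, Slc38a2 and Slc43a2 show groups that do not overlap, and Slc38a3 and Slc38a5 show the widest spread for their level.

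Among the exchangers built of a heavy and a light chain, the light chain Slc7a6 rose, and the heavy chain showed no detectable difference. Slc7a6 (y+LAT2) exchanges cationic for neutral amino acids. Its level was 232, 149.96, 132, 104, 128, 131 and 124 CPM in ON DOX tumors 1 to 7. In the OFF DOX tumors it was 45.9, 68.9, 54.9 and 40.7 CPM. Every ON DOX tumor was well above the highest OFF DOX tumor. The means of 143 ± 41.6 (n = 7) and 52.6 ± 12.3 CPM (n = 4) differed 2.72-fold, with a log2 change of 1.44 (SE 0.24, adjusted p = 0.00176). Slc7a6 and Slc7a6os lie on opposite strands, and since the strand setting of the counting is not given in the sources used here, their reads cannot be told apart where they overlap. Slc7a6os was at 54.7 ± 13.1 and 39.1 ± 2.08 CPM (0.48, adjusted p = 0.0779).

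Slc3a2 (CD98hc), the heavy chain that brings most of these light chains to the plasma membrane, ranged from 78.8 to 144 CPM on doxycycline, with a median of 117. It was 122, 98.0, 100.3 and 98.8 CPM off doxycycline, all within the ON DOX range. The log2 fold change was 0.10 (SE 0.17, adjusted p = 0.696), and at 38.9 CPM per kb it was among the more abundant members. The other heavy chain, Slc3a1, averaged 0.675 CPM on and 1.17 CPM off doxycycline.

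Slc7a5 (LAT1), the exchanger of leucine and other large neutral amino acids and a known MYC-responsive gene in other tumors, was not called. It ranged from 59.9 to 175 CPM in ON DOX tumors, with a median of 139.7, and was 21.4, 138, 44.7 and 25.2 CPM in the OFF DOX tumors. OFF DOX tumor 2, the one with few lung reads, sat at the ON DOX median, while the other 3 lay below every ON DOX tumor. The log2 fold change was 1.17 (SE 0.50, adjusted p = 0.0945). Without OFF DOX tumor 2 it was 2.09 with an adjusted p of 0.00352, and limma's voom called it with all tumors (1.53, adjusted p = 0.0266).

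The remaining light chains were scarcer, and none was called in the main fit. Slc7a11 (xCT), the cystine importer, was at 13.3 ± 6.79 on and 9.37 ± 7.25 CPM off doxycycline (0.50, SE 0.57, adjusted p = 0.533). Slc7a7 (y+LAT1) was at 5.62 ± 1.795 and 13.4 ± 8.82 CPM (-1.25, SE 0.45, adjusted p = 0.057), with 24.6, 4.26, 15.7 and 8.91 CPM in the OFF DOX tumors, so that the lung-poor tumor 2 was again with the ON DOX tumors. Slc7a7 was called lower in 6 of the 23 alternative settings, DESeq2 among them. Slc7a10, a carrier of small neutral amino acids, stood at 19.0 CPM in OFF DOX tumor 1 and at or under 1.95 CPM elsewhere. Slc7a9, Slc7a12, Slc7a13 and Slc7a15 were not tested, and none of them reached 1 CPM in any tumor. Of the summed light-chain level per kb, Slc7a6 made up 47.3% ± 7.63 (38.5% to 58.4%) on doxycycline and 34.0% ± 7.40 (26.0% to 42.3%) off it. Slc7a5 made up 44.6% ± 9.09 and 34.5% ± 21.6, Slc7a7 3.26% and 14.7%, and Slc7a8 2.23% and 8.10%. In ON DOX tumors the pool was thus almost wholly Slc7a5 and Slc7a6.

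The cationic branch of Slc7 works without a heavy chain, and 1 of its 5 members was called higher and none lower. Among all genes tested, 16.0% were called higher and 13.4% lower. Slc7a1 (CAT1), the main importer of arginine and lysine in most cells, ranged from 121 to 411 CPM on doxycycline with a median of 214. It was 35.5, 160.2, 77.3 and 48.8 CPM in the OFF DOX tumors. Tumor 2 of these lay inside the ON DOX range and the other 3 lay below it. The means of 231 ± 89.9 (n = 7) and 80.4 ± 55.9 CPM (n = 4) gave a 2.87-fold difference and a log2 change of 1.52 (SE 0.42, adjusted p = 0.0209). The call was lost without OFF DOX tumor 1 (0.0545), 3 (0.0526) or 4 (0.0629), and without tumor 2 the log2 change was 2.11. Slc7a14, a gene of this branch found mainly in neural tissue, was abundant in both groups, at 147 ± 38.2 and 97.5 ± 37.9 CPM (0.59, SE 0.27, adjusted p = 0.115). Slc7a2, Slc7a3 and Slc7a4 were not called either, with log2 fold changes of -0.10, 0.14 and -1.19.

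The facilitated Slc43 and the proton-coupled Slc36 carriers each gave 1 lower call among 3 tested genes, and none higher. Among all genes tested, 13.4% were called lower and 16.0% higher. Slc43a2 (LAT4), which lets leucine, phenylalanine and methionine pass down their gradient, ranged from 27.3 to 42.6 CPM on doxycycline, with a median of 34.0. It was 67.4, 76.5, 76.3 and 64.4 CPM off doxycycline. The groups were far apart, with little spread in each. The means of 33.3 ± 5.40 (n = 7) and 71.2 ± 6.18 CPM (n = 4) gave a log2 change of -1.10 (SE 0.15, adjusted p = 9.90e-04), or 2.14-fold higher off doxycycline. Its relative Slc43a1 (LAT3) was at 4.74 ± 2.40 and 3.61 ± 1.52 CPM (0.39, SE 0.54, adjusted p = 0.613). Slc43a3, a purine base carrier abundant in endothelium, was at 13.98 ± 9.96 and 49.1 ± 56.7 CPM (-1.81, SE 0.66, adjusted p = 0.0578), with 133 CPM in OFF DOX tumor 1 alone. The sum of 7 endothelial markers was 87.1 to 390.1 CPM on and 157 to 936 CPM off doxycycline, highest in that same tumor, and its part in the Slc43a3 values was not tested. Slc43a3 was called lower in 5 of the 23 alternative settings, DESeq2 among them, and its sign reversed in 1.

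Slc36a1 (PAT1) exports small neutral amino acids from lysosomes with protons. It ranged from 38.6 to 91.0 CPM in ON DOX tumors, with a median of 47.1, and was 72.3, 149, 129 and 181 CPM in the OFF DOX tumors. ON DOX tumor 7 lay above OFF DOX tumor 1, and the groups were otherwise apart. The means of 53.2 ± 17.96 (n = 7) and 133 ± 45.7 CPM (n = 4) gave a log2 change of -1.32 (SE 0.27, adjusted p = 0.00547), or 2.50-fold higher off doxycycline. Slc36a4 was at 19.1 ± 7.41 and 16.8 ± 9.44 CPM (0.18, SE 0.40, adjusted p = 0.763). Slc36a2 was at 27.7 CPM in OFF DOX tumor 1 and at or under 5.03 CPM elsewhere, and Slc36a3 was close to 0.

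Promoter sequences were looked at for the E-box CACGTG, the site that MYC family proteins bind with MAX, and for TGATGNAA, the element of the stress factor ATF4. The windows ran from 250 bases before to 50 bases after each start in RefSeq (GRCm38.p6), both strands were searched, and 44 of the 62 members had a window. CACGTG was found in 8 of those 44 (18.2%) and in 8.09% of all 27025 genes with a window. It was in 2 of the 3 called-lower genes, Slc36a1 and Slc38a5, and in none of the 3 called-higher genes with a window, Slc7a6, Slc7a1 and Slc38a2. TGATGNAA was found in 3 of 44 (6.82%), in Slc7a11, Slc1a4 and Slc7a7, and in 4.51% of all genes with a window. A match of letters is no evidence that a factor binds there. The 100 bases before the start are shown for Slc36a1 and Slc38a5, the called-lower genes that hold the E-box, for Slc43a1, which also holds it and was not called, and for Slc7a11, which has the ATF4 element on both strands. Capitals mark the motif, and a further E-box of Slc36a1 that crosses its start is not shown. The stretches are those of Slc36a1 at chr11:55204240-55204339 (plus strand), Slc38a5 at chrX:8271281-8271380 (plus), Slc43a1 at chr2:84840223-84840322 (plus) and Slc7a11 at chr3:50443614-50443713 (minus).
Slc36a1: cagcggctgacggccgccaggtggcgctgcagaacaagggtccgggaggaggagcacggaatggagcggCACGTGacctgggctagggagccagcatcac
Slc38a5: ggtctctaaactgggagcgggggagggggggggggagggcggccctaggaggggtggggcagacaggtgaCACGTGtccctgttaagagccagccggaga
Slc43a1: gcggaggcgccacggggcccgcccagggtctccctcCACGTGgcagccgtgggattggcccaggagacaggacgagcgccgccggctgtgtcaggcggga
Slc7a11: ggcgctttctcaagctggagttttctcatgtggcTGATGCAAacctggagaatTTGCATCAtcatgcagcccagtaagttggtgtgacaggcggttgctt

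The Slc1 family gave no call among 6 tested genes, against 16.0% higher and 13.4% lower among all genes tested. Of the 6, 2 were at an unadjusted p below 0.05. DESeq2 called 0 higher and 1 lower, and voom called 1 in each direction. Over all 15237 genes DESeq2 called 2664 higher and 2925 lower, and voom 2515 and 1844. Slc1a5 (ASCT2), the glutamine exchanger that MYC is known to raise in several cell types, ranged from 12.6 to 97.4 CPM on doxycycline, with a median of 33.0. It was 63.1, 27.3, 33.0 and 55.9 CPM off doxycycline, within that range. Its log2 fold change was -0.17 (SE 0.48, adjusted p = 0.817), so no difference was detectable over a wide spread. Slc1a4 (ASCT1), an exchanger of alanine, serine and cysteine, ranged from 48.5 to 100.2 CPM with a median of 90.5 on doxycycline, and was 48.4, 29.8, 48.8 and 77.0 CPM off it. The log2 fold change was 0.74 (SE 0.26, adjusted p = 0.0514), and 6 of the 7 ON DOX tumors lay above every OFF DOX tumor. Slc1a4 was called higher in 4 of the 23 alternative settings, voom among them. The 4 tested glutamate carriers Slc1a1, Slc1a2, Slc1a3 and Slc1a7 had log2 fold changes of -1.10, -1.34, -0.43 and -1.78 at mean levels of at most 9.13 CPM.

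Slc6, which carries neurotransmitters, creatine, taurine and some amino acids, gave no call among 12 tested of 19 members. Among all genes tested, 16.0% were called higher and 13.4% lower. Of the 12, 3 were at an unadjusted p below 0.05. DESeq2 called 3 higher and 0 lower, against 2664 and 2925 of all 15237 genes. With voom there was 1 call in each direction, against 2515 and 1844. The most abundant Slc6 member was Slc6a6, the taurine carrier, at 35.2 CPM per kb. It ranged from 113 to 309 CPM on doxycycline and was 220.5, 247, 181 and 225 CPM off it, with a log2 change of -0.01 (SE 0.25, adjusted p = 0.98). Slc6a8, the creatine carrier, was at 67.8 ± 14.9 and 57.3 ± 7.37 CPM (0.24, SE 0.19, adjusted p = 0.359). Their SEs were the smallest of the 12 tested Slc6 genes.

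Several other Slc6 genes were instead high in a few tumors. Slc6a5, the neuronal glycine carrier, was at 121 CPM in OFF DOX tumor 2, 64.2 in ON DOX tumor 6, 29.0 in tumor 1, 16.6 in tumor 4 and 7.14 in tumor 3, and under 1 CPM in the other 6 tumors. Slc6a13, a carrier of the transmitter GABA, reached 30.6 CPM on doxycycline with a median of 2.27 and at most 1.01 CPM off it (4.04, SE 1.87, adjusted p = 0.119). Slc6a15, a carrier of branched-chain amino acids and proline in the brain, ranged from 4.35 to 155 CPM on doxycycline and was 12.2, 17.7, 32.6 and 19.98 CPM off it (1.84, SE 0.76, adjusted p = 0.0859). Slc6a14, a broad carrier of neutral and cationic amino acids, was 10.3 and 9.76 CPM in ON DOX tumors 3 and 5. It was listed at 0 in most other ON DOX tumors and at 1.25 CPM in tumor 7. In OFF DOX tumors 1 to 4 it was 53.4, 0, 12.3 and 20.5 CPM (-2.81, SE 1.603, adjusted p = 0.202). Its higher values were in the tumors with the highest lung marker sums, and its dependence on lung content was not tested. None of these genes was called in the main fit, and tumors of a group spread widely. DESeq2 and a replicate block over tumors 1 to 4 called Slc6a13 and Slc6a15 higher. In all, Slc6a15 was called in 4 of the 23 alternative settings. Slc6a20a and Slc6a20b are near copies of each other, so their counts are uncertain.

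By expression level, the calls came from carriers at 1 CPM per kb or more. With levels divided by the length of the longest transcript, 16 members averaged 10 CPM per kb or more, and 3 of them were called higher and 1 lower. At that level 28.3% of all genes tested were called higher and 7.75% lower. Between 1 and 10 CPM per kb, 26 members were tested, with 1 called higher and 2 lower, against 6.90% and 18.1% of all genes. Under 1 CPM per kb, 6 of 20 members were tested and none was called by edgeR, against 1.14% higher and 18.6% lower among all genes. Of these 6, 2 were at an unadjusted p below 0.05, DESeq2 called 1 lower and voom called 2 lower. Shares of all genes at this level were not computed for those counts. The median log2 fold change of the tested members was 0.54, -0.33 and -1.30 from the highest to the lowest level. The shares of all genes have the same order, with higher calls most frequent among well expressed genes. Summed over the 61 transporters, the level was 428 to 699 CPM per kb in the ON DOX tumors and 463, 512, 429 and 416 CPM per kb in the OFF DOX tumors, which overlapped.

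**Figure D3:**
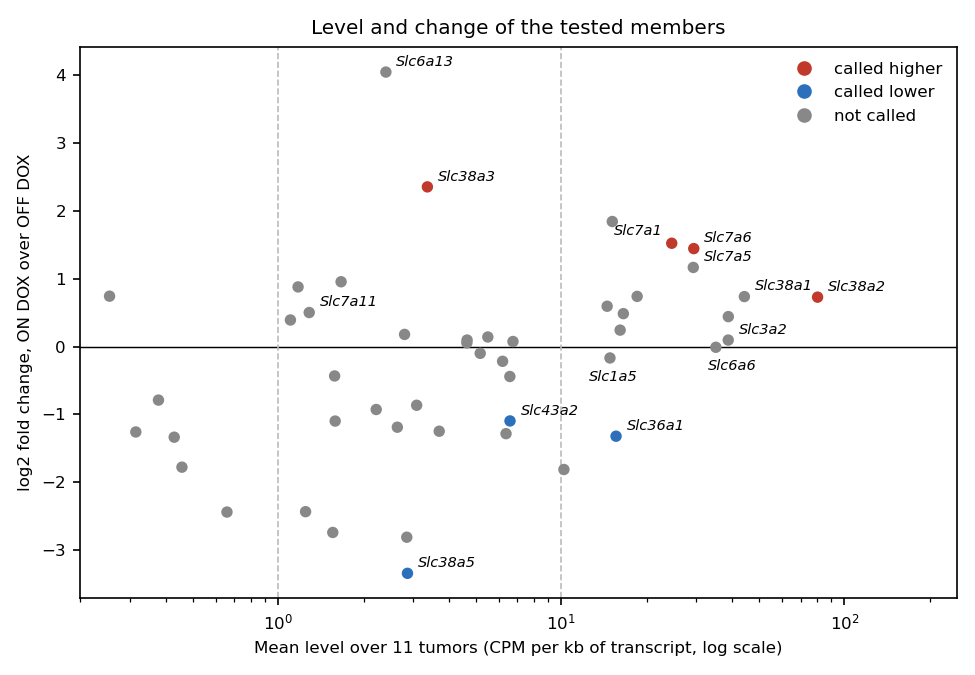
Mean level over the 11 tumors (CPM per kb of transcript, log axis) against the log2 fold change, ON DOX over OFF DOX, for the 48 tested members. Points are genes, red if called higher, blue if called lower and gray if not called, and dashed lines mark 1 and 10 CPM per kb; Slc38a2 is the most abundant at 80.4.

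Lung marker levels differed between the tumors, so the calls were also read with them in the model. With a score of the 15 lung genes in the model as a covariate, Slc7a6 (log2 fold change 1.20, adjusted p = 0.0183), Slc36a1 (-1.42, 0.0289) and Slc43a2 (-0.97, 0.0112) were still called. Slc38a2 (0.44, 0.181), Slc38a3 (1.36, 0.264), Slc7a1 (0.97, 0.105) and Slc38a5 (-2.99, 0.0909) were not. The score followed the groups in part, from -0.69 to 6.79 in ON DOX tumors and from 1.78 to 9.65 in OFF DOX tumors. Over all genes, calls fell from 2437 higher and 2038 lower to 1021 and 448 with it. A lost call can therefore come from lower power alone, and dependence on lung content was not tested. Within the lung-poor tumors, 5 on and 1 off doxycycline, the log2 ratio was 1.11 for Slc7a6, -1.32 for Slc43a2 and -1.46 for Slc36a1. Within the lung-containing tumors, 2 on and 3 off, it was 1.47, -0.80 and -1.33. These 3 genes had the same direction in both, as did Slc38a3, at 1.62 and 1.81, and Slc38a5, at -3.16 and -3.47. For Slc7a6, Slc43a2 and Slc38a2, whose groups do not overlap, any split of the tumors must give the same direction. The split uses the tumors that made the calls, so it adds no separate evidence. The calls of Slc38a3 and Slc38a5 were lost with the lung score. For Slc7a1 the ratios were 0.62 and 1.83, for Slc38a2 0.33 and 0.74, for Slc38a1 0.34 and 0.68, and for Slc7a5 -0.02 and 1.84. The lung-poor comparison rests on 1 OFF DOX tumor, so it has no test. Slc7a6, Slc36a1 and Slc43a2 were also called in the same direction in all 23 alternative settings.

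**Figure D4:**
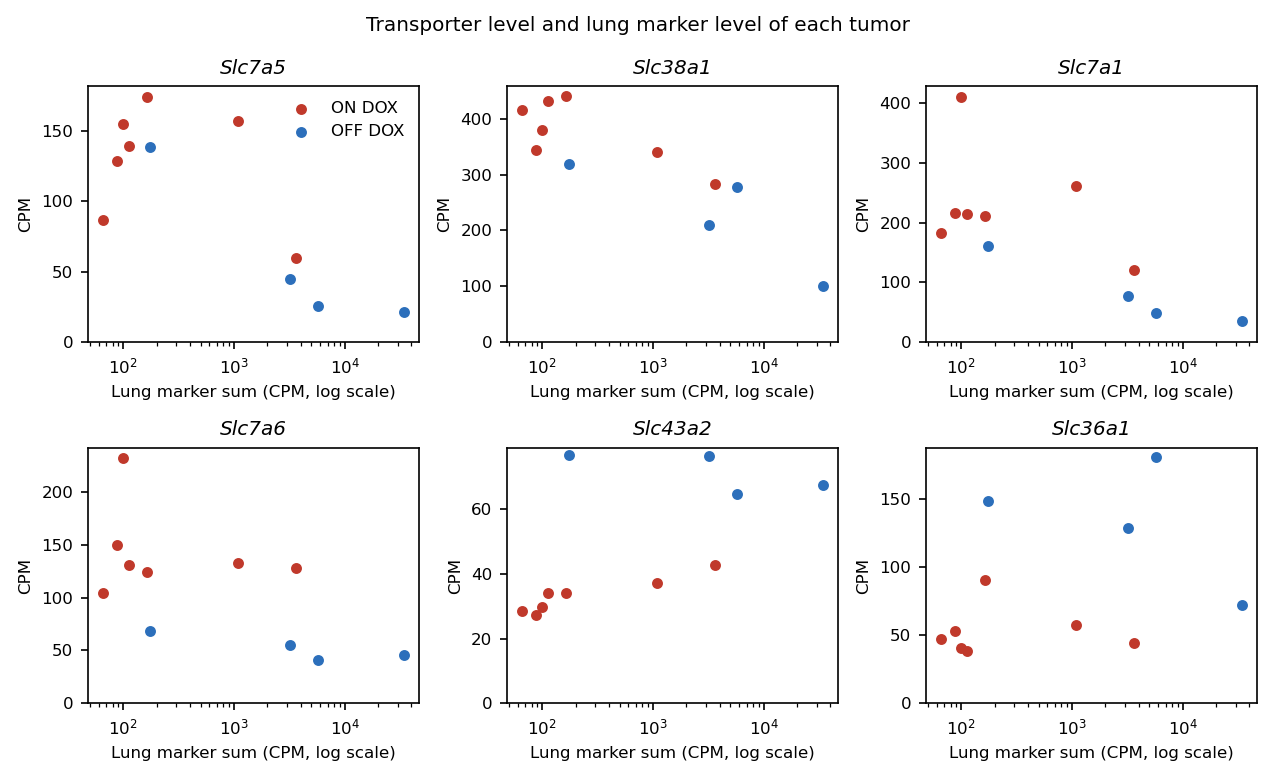
Level of 6 transporter genes in each tumor (CPM, linear axis from 0) against the summed level of 15 lung epithelial markers in the same tumor (CPM, log axis), with ON DOX tumors in red and OFF DOX tumors in blue. OFF DOX tumor 2, the blue point at 174 CPM of lung markers, lies within or near the ON DOX points for Slc7a5, Slc38a1 and Slc7a1 and apart from them for Slc7a6, Slc43a2 and Slc36a1.

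Genes around the transporters were read from lists, each to be set against the 16.0% higher and 13.4% lower among all genes tested. Of 36 genes by which amino acids signal to mTORC1, 7 were higher and 2 lower on doxycycline, or 19.4% and 5.56%, with a median log2 fold change of 0.16. Seh1l, a subunit of the GATOR2 complex, was at 273 ± 43.6 and 91.3 ± 26.0 CPM (1.58, SE 0.21, adjusted p = 8.23e-04). Its partner Mios was at 60.3 ± 17.3 and 30.4 ± 6.45 CPM (0.99, SE 0.26, adjusted p = 0.0153). The Mios call was lost with library totals, the lung score, a replicate block over tumors 1 to 4 and a threshold of 0.01. Rheb, the GTPase that activates mTORC1, was at 158 ± 19.4 and 99.6 ± 5.30 CPM (0.66, SE 0.13, adjusted p = 0.00464). The lower ones were Gatsl3 and 0910001L09Rik, symbols for Castor1, a cytosolic arginine sensor, and Lamtor4, a subunit of the lysosomal Ragulator complex.

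Of 21 tested amino acid carriers outside the 7 families, 4 were higher and 2 lower, or 19.05% and 9.52%, near the shares of all genes, with a median of 0.09. Sfxn1, the mitochondrial serine carrier, was at 196 ± 51.2 on and 68.7 ± 12.6 CPM off doxycycline (1.51, SE 0.22, adjusted p = 0.00108). Slc25a29, a mitochondrial carrier of basic amino acids, was at 2.29 ± 1.79 and 13.3 ± 6.98 CPM (-2.53, SE 0.52, adjusted p = 0.00518). The Slc25a29 call was lost with the lung score. Of 20 tested partners and regulators of transporters, 4 were higher and 3 lower, or 20% and 15%, near the shares of all genes, with a median of -0.16. Among these Nfe2l2, the factor that drives xCT under oxidative stress, was at 39.4 ± 12.4 and 108 ± 56.1 CPM (-1.46, SE 0.33, adjusted p = 0.00831), while Slc7a11 itself was not called. The Nfe2l2 call was lost with the lung score and with a replicate block over tumors 1 to 4.

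Of 15 enzymes that break down branched-chain amino acids, 2 were higher (13.3%, under the share of all genes) and none was lower by edgeR, with a median of 0.02, 4 at an unadjusted p below 0.05, and 2 lower by DESeq2 and 1 lower by voom. Bcat1, the cytosolic transaminase of leucine, isoleucine and valine, ranged from 115 to 240.0 CPM on and from 2.53 to 23.4 CPM off doxycycline. All 7 ON DOX tumors were far above all 4 OFF DOX tumors. The log2 fold change was 3.77 (SE 0.53, adjusted p = 9.82e-04). Dld, a shared dehydrogenase subunit, was at 149 ± 17.9 and 99.8 ± 10.5 CPM (0.58, SE 0.14, adjusted p = 0.0113). The Dld call was lost with upper quartile factors, library totals, the lung score, a replicate block over tumors 1 to 4 and a threshold of 0.01. Bcat1, Seh1l, Sfxn1 and Rheb were called in the same direction in all 23 alternative settings.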

How the data were processed

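Per the labels' protocols, RNA was taken with TRIzol, poly(A) RNA was selected on oligo-dT beads, and NEBNext Ultra RNA reagents were used for the libraries. Per the submitters' processing notes, bcl2fastq 1.8.4, TopHat2 2.0.8b, HTSeq 0.6.1 and build mm9 were used; annotation and strand setting are not given in the sources used here. For each gene symbol, the authors deposited a raw count of reads, not normalized. Groups come from the sample titles. The 5 summary rows were left out (no feature, 14.8% to 21.5% of a tumor's records; not unique, 9.15% to 20.9%). Genes were kept with filterByExpr (minimum count 10, minimum total 15) and fitted over all 11 tumors with edgeR 4.0.16 (TMM, robust quasi-likelihood fit, R 4.3.3), with no covariate. CPM use TMM-scaled library sizes, a fold change is ON DOX over OFF DOX, and its SE is its size over the root of F. The coefficient of biological variation was 53.7%. Lengths come from the longest GENCODE M21 transcript, and promoters from RefSeq; build GRCm38 served only for these. No tumors of a group were near-duplicates (chi-square per gene at least 50.5). The code was tested on simulated data.

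The members and lists were chosen with earlier results of these data known. Named in full were called members, 11 transporters of textbook interest, the most abundant member of each family and up to 3 called genes of each other list. Slc6a5, Slc6a13, Slc6a14, Slc6a15, Slc7a7, Slc7a10, Slc7a14, Slc36a2, Slc38a10, Slc38a11 and other members given with single values were named after their values were seen. The 23 alternatives were other scalings, filters and thresholds, DESeq2 1.42.0, voom in limma 3.58.1, a lung score, a replicate block and each tumor left out. Leaving out the tumor with the most lung reads of each group, and tumors 1 to 4 without a block, were added after seeing the data. Values of some listed genes are not reported here.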

Additional observations from a re-analysis of the deposited data

Results flagged for a closer look

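In 14 of 80 groups of tumors checked, 9 ON DOX and 5 OFF DOX, 1 tumor lay far from the others by Dixon's criterion. The criterion is set to flag about 1 in 20 groups by chance when groups are independent and not picked by their values. Here the genes share the same tumors and some were named after their values were seen, so the count cannot be set against that rate. Among called transporters, ON DOX tumor 1 was high for Slc7a6, at 232 CPM against 104 to 149.96 in the others, and for Slc38a3, at 45.8 against 4.84 to 20.1. ON DOX tumor 7 was high for Slc36a1, at 91.0 CPM against 38.6 to 57.4, and low for Slc1a4, at 48.5 against 79.2 to 100.2. OFF DOX tumor 1, with the highest lung marker sum, stood out for Slc36a2 at 27.7 CPM against 0.297 to 3.38, Slc7a10 at 19.0 against 0 to 0.676, and Slc3a2 at 122 against 98.0 to 100.3. OFF DOX tumor 2 stood out for Slc6a5 at 121 CPM, with at most 0.811 in the other 3. ON DOX tumor 4 had 5.03 CPM of Slc36a2, against 0 to 1.73 in the others. ON DOX tumor 1 was also high for Slc38a10, at 324 CPM against 133 to 213, and for Rheb, at 198 against 135 to 160.4. ON DOX tumor 2 was high for Sfxn1, at 300.3 CPM against 139 to 198. Slc25a29 was highest in OFF DOX tumor 4, at 23.7 CPM against 8.64 to 10.5, and in ON DOX tumor 7, at 6.19 against 0.974 to 2.59.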

How the results depend on the processing

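Against 4 members higher and 3 lower, DESeq2 called 8 and 8 and voom 8 and 6. The lung score left 3 members called, and an adjusted p below 0.01 also left 3. In both settings these were Slc7a6, higher, and Slc36a1 and Slc43a2, lower. Calls over all genes also moved. They were 2437 higher and 2038 lower in the main fit, 2664 and 2925 by DESeq2, and 2515 and 1844 by voom. With the lung score they were 1021 and 448, and with an adjusted p below 0.01 they were 1187 and 516. Lower calls were 5 with RLE size factors, 7 with upper quartile factors, 8 with library totals and 5 with no filter on low counts. Over all genes, the lower calls with these 3 scalings were 2323, 2894 and 3347. With no filter they were 2439 of 19991 genes tested. Leaving out each tumor in turn gave 2 to 7 higher and 3 to 8 lower, with 7 and 8 both reached without OFF DOX tumor 2, and 2 higher without OFF DOX tumor 1, 3 or 4. Over all genes, 2955 were higher and 2438 lower without OFF DOX tumor 2. Higher calls were 1847, 1784 and 1674 without OFF DOX tumor 1, 3 or 4. A replicate block over tumors 1 to 4 gave 5 higher and 2 lower, against 3 and 3 for those tumors without it. Over all genes these fits gave 1829 and 1180, against 2046 and 1530. Deviations of tumors of the same number correlated at -0.16, 0.46, -0.08 and 0.26, and 2 of 4 OFF DOX tumors were most like the ON DOX tumor of their number, which does not show that the numbers pair them. Without the most lung-rich tumor of each group, 3 were higher and 2 lower, with 1896 and 1121 over all genes. Signs reversed for uncalled members, and the cause was not tested. With the lung score, log2 fold changes became 0.61 for Slc1a5, 0.39 for Slc36a2, -0.044 for Slc38a9, 0.24 for Slc43a3, 2.0001 for Slc6a14 and 1.52 for Slc7a10. Without the most lung-rich pair they were 0.14 for Slc1a5, 0.072 for Slc6a6 and 0.73 for Slc7a10. Upper quartile factors gave -0.11 for Slc38a9 and -0.13 for Slc3a2, and library totals -0.21 and -0.22, with -0.071 for Slc6a8. Slc6a5 was 0.50 by voom and 3.40 with the replicate block, and Slc6a6 0.019 in tumors 1 to 4 without it. Leaving out each tumor gave -0.62 to 0.044 for Slc1a5, -0.039 to 0.23 for Slc38a9, -0.070 to 0.18 for Slc3a2, -0.17 to 0.10 for Slc6a6, -2.83 to 1.03 for Slc7a10 and -1.79 to 5.02 for Slc6a5. Genes of low count, such as Slc38a5, are limited by depth.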
